A study of Bos taurus with 18 samples.

Results

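STAP2, PIK3AP1, PDE4B and RNF125 are 4 genes whose products tune immune signalling inside the cell, and they were read in all 18 RNA sequencing samples of a bovine endometrium-on-a-chip. They were chosen by that shared role, as 2 adaptor proteins, a phosphodiesterase and a ubiquitin ligase, and were found through pairs of Ensembl identifier and gene symbol that the study tabulated. The table held 36075 genes, of which 17931 passed the filter on low counts, and all 4 of these genes were among the latter. STAP2 (ENSBTAG00000006001), PIK3AP1 (ENSBTAG00000019872) and RNF125 (ENSBTAG00000068235) have their identifiers from the study's list of genes that responded to CAPG in epithelial cells, and PDE4B (ENSBTAG00000008636) from the matching list for stromal cells. The study made both lists with the DESeq2 method on these counts. The rise of each gene in the comparison of its own list is therefore tied to how its identifier was obtained and is no independent evidence. The same holds for differences between cell types in that rise, and the rbPDI comparisons share the same control samples.

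Each device held bovine endometrial epithelial cells (bEECs) under flow on one face of a porous membrane and bovine endometrial stromal cells (bESCs) in a static chamber on the other face. Both were primary cells of the same animal, from 3 late-luteal uterine tracts, and were enriched by differential trypsinization with purity judged under the microscope. The epithelial side received PBS as vehicle control (VC) or a recombinant bovine protein at 1 ug/mL, which was either CAPG (rbCAPG) or PDI (rbPDI), for 24 h. CAPG, an actin-capping protein, and PDI, a protein disulfide isomerase, are both released by the conceptus, and the comparisons ask how the endometrium responds to them. The 2 cell types and 3 exposures gave 6 groups with n = 3 samples, and replicates 1 to 3 are the 3 animals. Total counts ranged from 10072851 in rbPDI bESC replicate 1 to 44253149, and levels are given as CPM (counts scaled to a fixed library total), scaled by the TMM method of edgeR. CPM do not account for gene length, so levels were compared between samples and not between genes.

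STAP2 is an adaptor with a pleckstrin homology and an SH2 domain that binds activated kinases and STAT3, the transcription factor downstream of the interleukin 6 family. PIK3AP1, also called BCAP, carries tyrosine motifs that recruit phosphoinositide 3-kinase (PI3K) to B cell and Toll-like receptors. PDE4B hydrolyses cyclic AMP, the second messenger of many G protein-coupled receptors, and in leukocytes it is known for sustaining the output of inflammatory cytokines. RNF125 is a RING-type E3 ubiquitin ligase that marks the RNA sensor RIG-I, among other proteins, for degradation. In the endometrium, prostaglandin and cytokine signals of this kind are engaged around the time the conceptus attaches.

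Both adaptor genes were higher in epithelial cells, PDE4B was higher in stromal cells, and RNF125 was not called between them. With VC, edgeR's quasi-likelihood test called 3 of the 4 genes between bEECs and bESCs, where a call needs a change of more than 1 on the log2 scale, either way, and a p-value under 0.05 after Benjamini-Hochberg adjustment. Such calls were common, since 38.5% of all genes tested were called in this comparison. STAP2 was 35.6-fold higher in bEECs (log2 fold change 5.15, SE 0.33, edgeR adjusted p = 6.74e-09). PIK3AP1 was 14.2-fold higher in bEECs (3.83, SE 0.32, edgeR adjusted p = 8.65e-08). PDE4B was 3.44-fold lower in bEECs, with a log2 fold change of -1.78 (SE 0.40, edgeR adjusted p = 0.00155). The VC samples of these 3 genes did not overlap between the cell types, as was so for 56.8% of all genes tested. RNF125 differed by 0.40 (SE 0.38, 95% interval -0.40 to 1.20, edgeR adjusted p = 0.404), and its VC samples overlapped between bEECs and bESCs.

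Within single devices the epithelial to stromal ratio of STAP2 was 24.4, 32.95 and 57.3 with VC in animals 1 to 3, from 37.1 to 61.5 with rbCAPG and from 24.4 to 36.5 with rbPDI. The ratio of PIK3AP1 was 12.4, 12.0 and 19.9 with VC, from 26.7 to 47.5 with rbCAPG and from 22.2 to 31.1 with rbPDI. All 18 of these ratios were above 10, and for PIK3AP1 those with either protein lay above those with VC. The stromal level of PDE4B was 2.20, 4.52 and 3.94 times the epithelial level with VC, from 3.24 to 10.6 times with rbCAPG and from 2.70 to 6.77 times with rbPDI. RNF125 was the higher in bEECs in all 9 devices, by 1.11-fold to 1.65-fold with VC, 1.79-fold to 3.05-fold with rbCAPG and 1.39-fold to 3.70-fold with rbPDI.

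**Figure D1:**
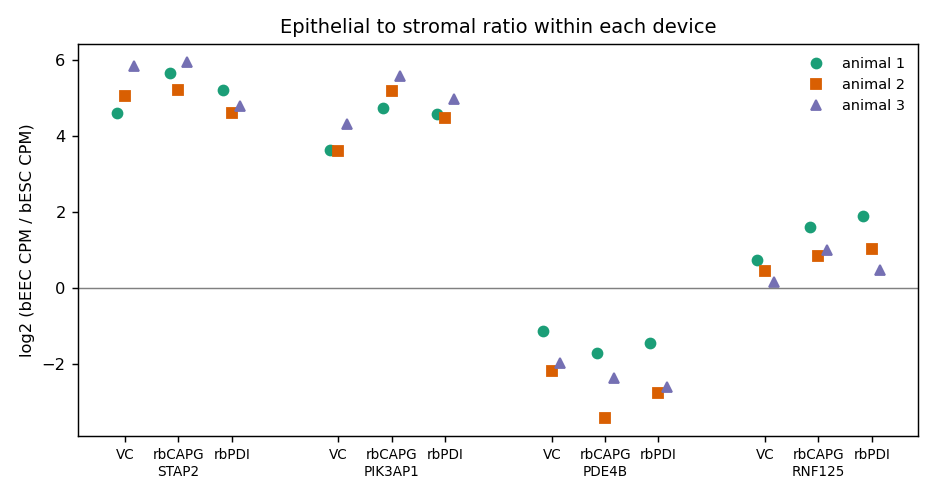
Log2 ratio of epithelial to stromal CPM within each device, for VC, rbCAPG and rbPDI, with 1 point for each animal. STAP2 and PIK3AP1 lie far above 0 in every device, PDE4B lies below 0 in every device, and RNF125 lies between 0.15 and 1.89.

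The labels of the cell types were checked against markers that had an identifier in the study's tables. The 5 epithelial markers (MUC1, OCLN, CDH26, RBM47 and FERMT1) summed to 453 to 687 CPM in VC bEECs and 8.55 to 12.6 CPM in VC bESCs. The 5 stromal markers (HAND2, COL6A1, VCAN, ZEB1 and EMILIN1) summed to 6.62 to 14.6 CPM in VC bEECs and 194 to 211 CPM in VC bESCs. Each marker set as a sum was thus high in its own cell type, with a small remainder in the other. FERMT1 was the least separated of the 10, at 16.1 to 20.3 CPM in VC bEECs and 4.28 to 7.66 CPM in VC bESCs. All 10 of these markers were called in the direction of their label with VC, where 38.5% of all genes tested were called. In bEECs the epithelial sum was 990 to 1018 CPM with rbCAPG and 940 to 1075 CPM with rbPDI, and the stromal sum was 16.6 to 46.3 CPM and 11.8 to 32.8 CPM. In bESCs the epithelial sum was 8.91 to 18.1 and 11.7 to 14.3 CPM, and the stromal sum was 211 to 363 and 214 to 292 CPM. Of the 5 epithelial markers, OCLN was called higher in bESCs with rbPDI, from 0.264 to 1.70 CPM (edgeR adjusted p = 0.0402), and 4 were not called. There 0.178% of all genes tested were called. With the replicate block 2 of the 5 were called higher and 0 lower. Another 4 genes known from leukocytes (CD14, AIF1, SLAMF8 and CD83) summed to 18.3 to 24.1 CPM in bEECs with VC, 56.1 to 67.4 CPM with rbCAPG and 72.2 to 85.4 CPM with rbPDI. In bESCs the same 4 genes summed to 6.26 to 23.4, 16.9 to 32.3 and 18.8 to 36.3 CPM, where AIF1 was at 3 counts or fewer in every sample. TEK, SELP and ESM1, known from endothelium, summed to 757 to 1287 CPM in bEECs with VC, 3581 to 4226 CPM with rbCAPG and 3035 to 6584 CPM with rbPDI, nearly all of it from ESM1, while TEK stayed below 0.888 CPM. In bESCs they summed to 252 to 340 CPM with VC, 449 to 735 CPM with rbCAPG and 381 to 575 CPM with rbPDI. The markers came from lists of genes called with rbCAPG in these samples, and their part in the results for the 4 genes was not tested. In bulk samples, a change in the number of cells of a type and a change in RNA per cell cannot be told apart.

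The adaptor STAP2 rose in epithelial cells with both proteins and in stromal cells with rbPDI. In bEECs it was at 118, 112.9 and 162 CPM with VC in animals 1 to 3, at 418, 311 and 270 CPM with rbCAPG, and at 362, 247 and 315 CPM with rbPDI. Every sample with a protein was above every VC sample, and in each animal both proteins were above that animal's own VC. Group means were 131 ± 27.0 CPM (SD, n = 3) with VC, 333 ± 76.7 CPM with rbCAPG and 308 ± 57.6 CPM with rbPDI. The change with rbCAPG was 2.54-fold (log2 fold change 1.35, SE 0.28, edgeR adjusted p = 0.0397), and that with rbPDI was 2.35-fold (1.23, SE 0.28, edgeR adjusted p = 0.0485). Both passed the threshold narrowly and lost it when any 1 of the 6 samples compared was left out (adjusted p from 0.0590 to 0.271 for rbCAPG and from 0.0581 to 0.241 for rbPDI).

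In bESCs STAP2 was far lower, at 4.85, 3.42 and 2.83 CPM with VC in animals 1 to 3, 8.37, 8.38 and 4.38 CPM with rbCAPG, and 9.91, 10.1 and 11.5 CPM with rbPDI. These levels rested on 110 to 496 counts per sample. The rbPDI samples were above all other stromal samples, while the lowest rbCAPG sample lay below the highest VC sample. Group means were 3.70 ± 1.04, 7.05 ± 2.30 and 10.5 ± 0.844 CPM. STAP2 was called with rbPDI, at 2.86-fold (1.52, SE 0.29, edgeR adjusted p = 0.0456), and this call was lost on leaving out any 1 of the 6 samples (adjusted p from 0.0830 to 0.303). With rbCAPG the log2 fold change was 0.94 (SE 0.28, 95% interval 0.34 to 1.54, edgeR adjusted p = 0.761), and every animal was above its own VC, by 1.55-fold to 2.45-fold.

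The adaptor PIK3AP1 separated the treated from the VC samples in epithelial cells and did not do so in stromal cells. In bEECs it was at 25.1, 15.1 and 18.7 CPM with VC in animals 1 to 3, at 39.5, 33.5 and 48.2 CPM with rbCAPG, and at 43.2, 30.7 and 51.8 CPM with rbPDI. Group means were 19.6 ± 5.03, 40.4 ± 7.44 and 41.9 ± 10.6 CPM, and the lowest protein-treated sample was above the highest VC sample. The log2 fold change was 1.04 with rbCAPG (SE 0.28, edgeR adjusted p = 0.149) and 1.09 with rbPDI (SE 0.28, edgeR adjusted p = 0.0865), and neither was called. Since replicate numbers mark animals, the same comparison was also fitted with the animal as a block within each cell type. With this replicate block PIK3AP1 was called with rbCAPG (1.05, SE 0.18, edgeR adjusted p = 0.00699) and with rbPDI (1.08, SE 0.18, edgeR adjusted p = 0.00402). DESeq2 called it as well (adjusted p = 0.0106 and 0.00341). The study's list that gave its identifier was made with DESeq2, so the rbCAPG call by that method is no independent support. Each animal was above its own VC, by 1.57-fold to 2.58-fold with rbCAPG and by 1.72-fold to 2.77-fold with rbPDI.

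In bESCs PIK3AP1 was far lower, with 21 to 72.5 counts per sample. It was at 2.03, 1.26 and 0.943 CPM with VC, 1.48, 0.928 and 1.02 CPM with rbCAPG, and 1.83, 1.38 and 1.67 CPM with rbPDI. The 3 groups overlapped, and animal 1 had the highest level in each of them. The log2 fold change was -0.28 with rbCAPG (SE 0.31, 95% interval -0.93 to 0.37) and 0.22 with rbPDI (SE 0.31, 95% interval -0.44 to 0.87), and the edgeR adjusted p was 1 for both. A doubling, which is 1 on the log2 scale, lies outside both intervals.

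The phosphodiesterase gene PDE4B was higher with both proteins in both cell types, in every animal, yet was not called by the fit of group means. In bESCs, its main site here, PDE4B was at 17.4, 30.2 and 20.03 CPM with VC in animals 1 to 3, at 38.8, 146 and 72.9 CPM with rbCAPG, and at 37.9, 86.0 and 84.7 CPM with rbPDI. Treated and VC samples did not overlap, and animals differed widely in how high they went. Group means were 22.5 ± 6.80, 85.8 ± 54.6 and 69.5 ± 27.4 CPM. The log2 fold change was 1.93 with rbCAPG (SE 0.39, edgeR adjusted p = 0.116) and 1.63 with rbPDI (SE 0.39, edgeR adjusted p = 0.147). With the replicate block it was 1.77 (SE 0.24, edgeR adjusted p = 0.00381) and 1.57 (SE 0.24, edgeR adjusted p = 0.00439), both called. DESeq2 called both as well (adjusted p = 0.000383 and 0.00517). Its rbCAPG call repeats the study's DESeq2 list that gave the identifier of PDE4B and is no independent support. Single libraries moved the rbCAPG value, whose call also passed without the filter on low counts (edgeR adjusted p = 0.0270). Without rbCAPG replicate 1 the change was 2.29 and called (edgeR adjusted p = 0.0149), and without rbCAPG replicate 2, at 146 CPM, it was 1.302 (edgeR adjusted p = 0.636).

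In bEECs PDE4B was lower and varied less, at 7.89, 6.69 and 5.08 CPM with VC, 12.0, 13.7 and 14.2 CPM with rbCAPG, and 14.0, 12.7 and 13.9 CPM with rbPDI. The 6 treated samples lay within 12.0 to 14.2 CPM and above all VC samples. Group means were 6.55 ± 1.41, 13.3 ± 1.16 and 13.5 ± 0.717 CPM. The log2 fold change was 1.02 with rbCAPG (SE 0.39, edgeR adjusted p = 0.483) and 1.04 with rbPDI (SE 0.39, edgeR adjusted p = 0.386). With the replicate block both were called, at 1.03 (SE 0.24, edgeR adjusted p = 0.0346) and 1.05 (SE 0.24, edgeR adjusted p = 0.0239). The gain per animal was 1.52-fold to 2.79-fold with rbCAPG and 1.78-fold to 2.72-fold with rbPDI.

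The ubiquitin ligase gene RNF125 had the largest epithelial change of the 4 genes. In bEECs it was at 7.13, 10.1 and 9.24 CPM with VC in animals 1 to 3, at 24.9, 32.8 and 41.5 CPM with rbCAPG, and at 43.4, 31.4 and 44.1 CPM with rbPDI. The lowest treated sample was more than double the highest VC sample. Group means were 8.83 ± 1.54, 33.1 ± 8.27 and 39.6 ± 7.12 CPM. RNF125 rose 3.74-fold with rbCAPG (log2 fold change 1.90, SE 0.39, edgeR adjusted p = 0.0349) and 4.49-fold with rbPDI (2.17, SE 0.39, edgeR adjusted p = 0.00922). The rbPDI call was lost without VC replicate 1 (adjusted p = 0.0872) or VC replicate 3 (0.0630) and was made on leaving out each of the other 4 samples. The rbCAPG call was made only on leaving out rbCAPG replicate 1 (adjusted p = 0.0442) and was lost in the other 5 cases, with an adjusted p of up to 0.271.

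In bESCs RNF125 was at 4.32, 7.37 and 8.31 CPM with VC in animals 1 to 3, 8.18, 18.3 and 20.8 CPM with rbCAPG, and 11.7, 15.5 and 31.7 CPM with rbPDI. Every animal was above its own VC, by 1.89-fold to 2.504-fold with rbCAPG and by 2.11-fold to 3.81-fold with rbPDI, while the lowest rbCAPG sample fell just below the highest VC sample. Group means were 6.66 ± 2.09, 15.8 ± 6.68 and 19.6 ± 10.6 CPM. The log2 fold change was 1.23 with rbCAPG (SE 0.38, edgeR adjusted p = 0.808) and 1.56 with rbPDI (SE 0.39, edgeR adjusted p = 0.161). With the replicate block RNF125 was called with rbCAPG (1.20, SE 0.22, edgeR adjusted p = 0.0293) and with rbPDI (1.499, SE 0.23, edgeR adjusted p = 0.00456), and DESeq2 called it with rbPDI (adjusted p = 0.00833). Animal 1 was the lowest of the 3 for both RNF125 and PDE4B in every stromal group. Its stromal libraries held 20488416 counts with VC, 33656974 with rbCAPG and 10072851 with rbPDI, each the smallest of its group, and the part of depth in this order was not tested.

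**Figure D2:**
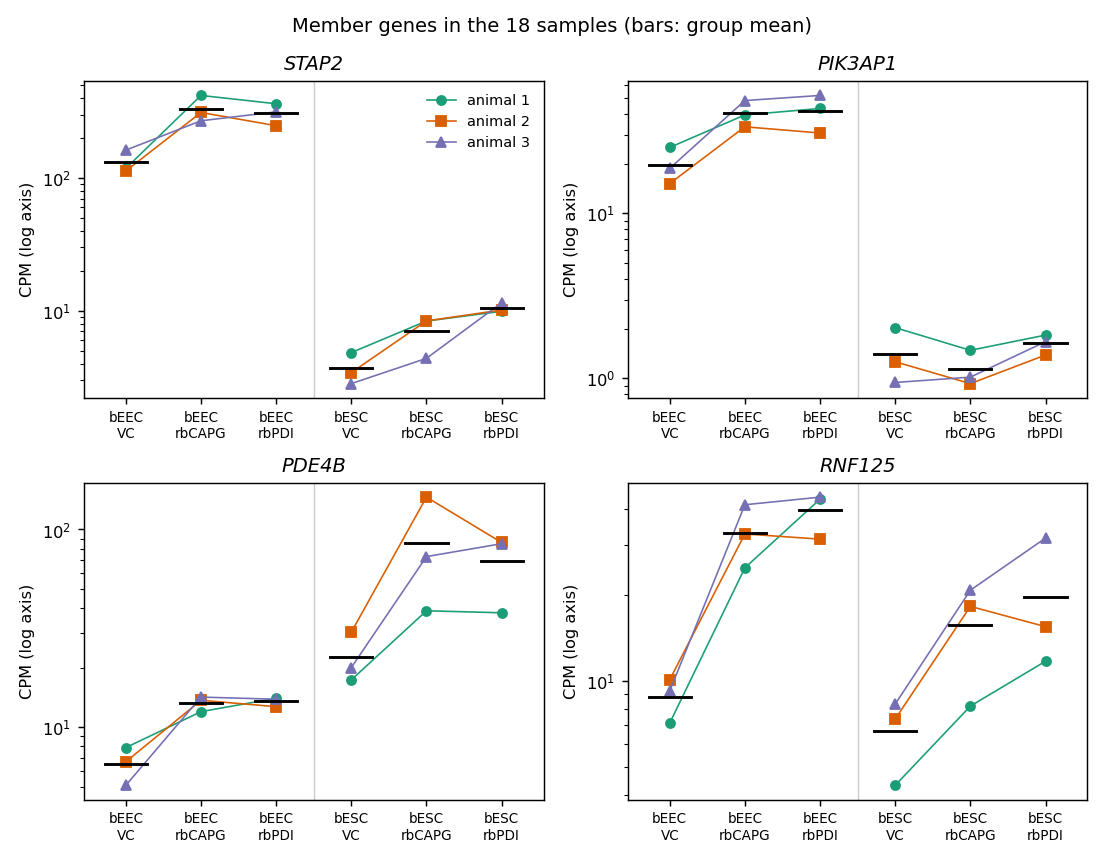
CPM of the 4 genes in the 18 samples on a log axis, with points joined within an animal and cell type and black bars at the group mean. STAP2 and PIK3AP1 are high in bEECs and low in bESCs, and the treated samples of all 4 genes lie above the VC samples in bEECs, while PIK3AP1 overlaps between groups in bESCs.

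Set side by side, 2 of the 4 genes were called with each protein in epithelial cells and at most 1 in stromal cells, and the number called changed when the animal entered the fit. In bEECs, STAP2 and RNF125 were called with rbCAPG, where 0.513% of all genes tested were called, and the same 2 with rbPDI, where 0.809% were. In bESCs, 0 of 4 were called with rbCAPG, where 0.0948% of all genes were, and 1 of 4 (STAP2) with rbPDI, where 0.178% were. The rbCAPG stromal zero came from edgeR. There 3 of the 4 genes had an unadjusted p under 0.05, as did 491 of the 17931 genes tested. DESeq2's Wald test called 1 gene there (PDE4B, adjusted p = 0.000383), and 0.416% of all genes it tested. That call repeats the study's own DESeq2 list for this comparison. Under the replicate block, calls in bEECs took in all 4 genes with rbCAPG (2.19% of all genes) and with rbPDI (2.96%). In bESCs the block gave PDE4B and RNF125 with rbCAPG (0.48% of all genes) and STAP2, PDE4B and RNF125 with rbPDI (1.05%). Of all genes tested, 15.4% had bEEC samples that did not overlap between rbCAPG and VC, 14.8% did so for rbPDI, 5.12% for rbCAPG in bESCs and 7.49% for rbPDI in bESCs. Against this, all 4 genes did so with each protein in bEECs, PDE4B did so with rbCAPG in bESCs, and STAP2, PDE4B and RNF125 did so with rbPDI in bESCs. The identifiers of 3 genes came from a list for rbCAPG in bEECs and that of PDE4B from a list for rbCAPG in bESCs, so nothing is read from their counts in those comparisons, and the rbPDI counts use the same VC samples.

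**Figure D3:**
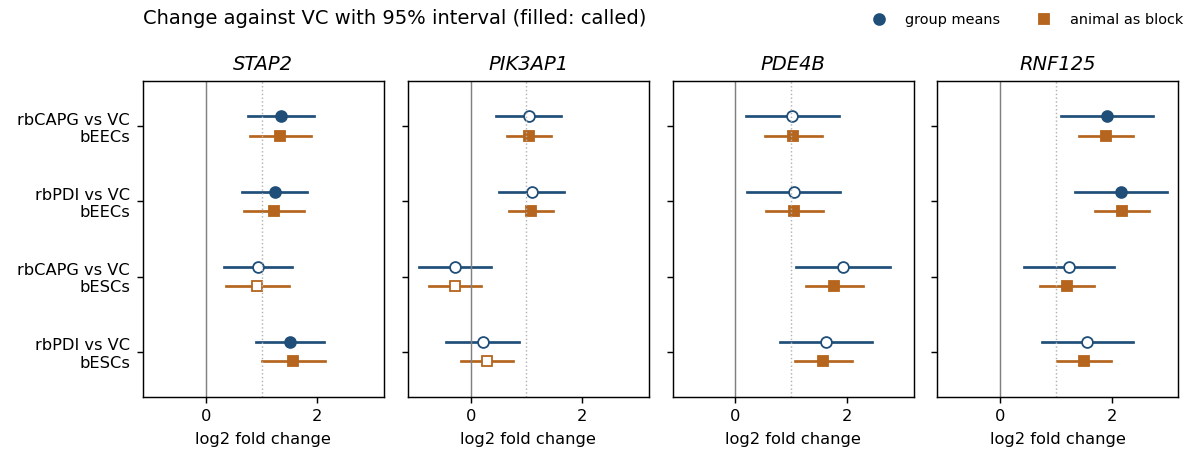
Log2 fold change of each gene against VC with its 95% interval, from the fit of group means (circles) and the fit with the animal as block (squares), where filled symbols are called. The dotted line marks a doubling, and the intervals of PIK3AP1 in bESCs are the ones that reach below 0 in both fits.

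No gene of the 4 was called between the proteins. Between rbPDI and rbCAPG edgeR called 0% of all genes tested in bEECs and 0% in bESCs, where 103 and 319 genes had an unadjusted p under 0.05. DESeq2 also called 0 in both, with 200 and 660 genes under an unadjusted p of 0.05. In bEECs the difference of rbPDI minus rbCAPG on the log2 scale was -0.11 for STAP2 (95% interval -0.69 to 0.47), 0.05 for PIK3AP1 (-0.53 to 0.63), 0.02 for PDE4B (-0.79 to 0.84) and 0.26 for RNF125 (-0.53 to 1.05). A difference of a doubling therefore lay outside the interval for the first 3 genes and inside it for RNF125. In bESCs it was 0.58 for STAP2 (-0.01 to 1.17), 0.50 for PIK3AP1 (-0.16 to 1.15), -0.30 for PDE4B (-1.11 to 0.50) and 0.32 for RNF125 (-0.47 to 1.12). The stromal STAP2 samples did not overlap between the proteins, the rbPDI samples all being higher, but the edgeR adjusted p was 1. In each of the 3 animals rbPDI was above rbCAPG in bESCs for STAP2 (by 0.24, 0.27 and 1.39 on the log2 scale) and for PIK3AP1 (by 0.31, 0.58 and 0.71). These stromal differences with the replicate block were 0.65 for STAP2 (95% interval 0.09 to 1.20, unadjusted p = 0.0251) and 0.57 for PIK3AP1 (0.10 to 1.04, unadjusted p = 0.0217), and the edgeR adjusted p was 1 for both.

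The difference between the cell types in their response was tested as an interaction, and 0 of the 4 genes were called by edgeR for either protein. Over all genes tested, 0.0669% were called for rbCAPG and 0.0948% for rbPDI. PIK3AP1 came nearest. Its rbCAPG change was greater in bEECs than in bESCs by 1.32 on the log2 scale (SE 0.41, 95% interval 0.45 to 2.19, unadjusted p = 0.00551 and adjusted p = 1.00 by edgeR), and its rbPDI change by 0.87 (SE 0.42, unadjusted p = 0.0512 by edgeR). With the replicate block the edgeR adjusted p for the former was 0.0922 and no gene of the 4 was called. For PDE4B the rbCAPG change was smaller in bEECs than in bESCs, with a difference of -0.91 (SE 0.55, 95% interval -2.06 to 0.25). The rbCAPG differences of the 4 genes contain the change through which each identifier was obtained, so nothing is read from their direction. DESeq2 also called 0 of the 4 genes for either protein, and in the fit of group means PIK3AP1 alone had an unadjusted p under 0.05 by edgeR, for rbCAPG. Under the replicate block the unadjusted p was also under 0.05 for PDE4B (0.0422) and RNF125 (0.0429) with rbCAPG, and for PIK3AP1 (0.0154) and RNF125 (0.0492) with rbPDI. Of the 17931 genes tested, 1307 were under 0.05 with rbCAPG and 1710 with rbPDI in that fit. In the fit of group means 613 and 846 were.

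Ordered by mean level over the 6 groups, STAP2 ran from rbCAPG bEECs and rbPDI bEECs through VC bEECs to bESCs with rbPDI, rbCAPG and VC. The neighbours that overlapped in this order were the 2 protein groups of bEECs, and rbCAPG and VC in bESCs. PIK3AP1 had rbPDI bEECs first, then rbCAPG bEECs, which overlapped with them, VC bEECs and the 3 stromal groups, which overlapped with each other. PDE4B had the 3 stromal groups first, with rbCAPG and rbPDI overlapping, and VC bESCs were still above all epithelial groups, by 1.67-fold over rbPDI bEECs. RNF125 had both protein groups of bEECs first, then both protein groups of bESCs, then VC in bEECs and bESCs, and every pair of neighbours in its order overlapped. From the lowest to the highest sample, STAP2 spanned 148-fold, PIK3AP1 55.9-fold, PDE4B 28.7-fold and RNF125 10.2-fold.

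After the mean of each cell type was taken away, levels of PDE4B and RNF125 moved most alike of any 2 of the 4 genes, with a Pearson correlation of log2 CPM of 0.82 over 18 samples (0.92 in bEECs and 0.86 in bESCs). STAP2 had 0.71 with RNF125, 0.66 with PDE4B and 0.65 with PIK3AP1. PIK3AP1 and PDE4B had 0.90 within bEECs and -0.34 within bESCs. These correlations describe samples that share exposures, animals and libraries.

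Among the 189 other genes with a symbol, GCA (0.90), TNIP1 (0.89) and BPNT2 (0.88) moved most like STAP2. This is the same Pearson correlation over 18 samples, with the cell type means taken away. With those means left in, the 3 values were 0.91, -0.58 and 0.49, so the likeness is one of movement within cell types. GCA encodes grancalcin, a calcium-binding protein of granulocytes, and TNIP1 a ubiquitin-binding partner of the deubiquitinase TNFAIP3. Most like PIK3AP1 were TMCC3 (0.83), TNFRSF9 (0.81), the costimulatory receptor 4-1BB, and SLC35F3 (0.79). Most like PDE4B were ADAMTS5 (0.93), a protease that cleaves aggrecan, PTGS2 (0.93), the inducible cyclooxygenase of prostaglandin synthesis, and TNFAIP3 (0.93). Most like RNF125 were NFKBIZ (0.96), a nuclear regulator of NF-kB target genes, ZC3H12A (0.95), an RNase that degrades cytokine transcripts, and PLEKHS1 (0.93). All of these genes were drawn from lists that the study called with rbCAPG in these samples.

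Around the 4 genes, 5 lists of pathway genes were read. They were drawn from the study's tables of genes called with rbCAPG, so a shift with rbCAPG is not independent evidence. The rbPDI comparisons use the same VC samples, so a shift of these lists with rbPDI is not independent either. A difference between cell types is likewise tied to which cell type's list a gene came from. The median log2 fold change of all genes tested was 0.02 and -0.01 in bEECs and -0.01 and 0 in bESCs, for rbCAPG and rbPDI in turn. In the same order, edgeR called 0.513%, 0.809%, 0.0948% and 0.178% of all genes tested, and 2.19%, 2.96%, 0.48% and 1.05% with the replicate block. Nearest to RNF125, the 7 genes of ubiquitin editing (USP20, SH3RF2, MARCHF3, BIRC3, TNFAIP3, TNIP1 and ZC3H12A) had 4 members called higher and 0 lower in bEECs with rbCAPG, 4 and 0 with rbPDI, 4 and 0 in bESCs with rbCAPG, and 5 and 0 with rbPDI. Their median log2 fold change was 1.52, 1.82, 1.79 and 1.99 in that order, and with the replicate block 6, 6, 5 and 5 were called higher and 0 lower. MARCHF3 differed between the cell types, at -0.32 and -0.49 in bEECs, not called, and 1.61 and 1.99 in bESCs, the latter called. Its rbPDI change was lower in bEECs than in bESCs by interaction (-2.47, edgeR adjusted p = 0.0361). There 1 of the 7 genes and 0.0948% of all genes tested were called. ZC3H12A went from 3.11 ± 0.393 CPM in VC bEECs to 20.5 ± 2.83 CPM with rbCAPG (2.72, edgeR adjusted p = 0.000111) and 22.8 ± 3.97 CPM with rbPDI (2.87, edgeR adjusted p = 5.97e-05). BIRC3, a ubiquitin ligase of TNF receptor signalling, rose in bEECs by 2.28 with rbCAPG (edgeR adjusted p = 0.00146) and 2.70 with rbPDI (edgeR adjusted p = 0.00029). TNIP1 rose in bESCs by 1.88 with rbCAPG (edgeR adjusted p = 0.0101) and 2.15 with rbPDI (edgeR adjusted p = 0.00526).

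The 9 genes of PI3K and receptor tyrosine kinase signalling, the pathway of PIK3AP1, had 0 called in bEECs with rbCAPG, 2 called higher with rbPDI and 0 in bESCs with either protein. The median log2 fold change was 1.39 with each protein in bEECs, and 0.19 and 0.31 in bESCs. DESeq2, the method of the study's lists, called 8 higher and 1 lower with rbCAPG in bEECs and 0 in bESCs. The difference between the cell types is therefore tied to how these genes were listed, and nothing is read from it. With the replicate block 8 were called higher and 1 lower in bEECs with rbCAPG, and 6 higher with rbPDI, while bESCs kept a count of 0, against 2.19% and 2.96% of all genes tested in bEECs with that fit. ANGPT1, a ligand of the TEK receptor, was at 0.185 ± 0.0678 CPM in VC bEECs and 2.33 ± 0.229 CPM with rbPDI (3.63, edgeR adjusted p = 0.00488). TEK itself was at 0.0727 ± 0.0502 and 0.704 ± 0.169 CPM (3.23, edgeR adjusted p = 0.0442), both low levels. RASA2, a GTPase-activating protein for Ras, had a log2 fold change of 1.03 with rbCAPG in bEECs (edgeR adjusted p = 0.0791, and 0.00383 with the replicate block).

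In the pathway of PDE4B, the 7 genes of G protein-coupled receptor and cyclic AMP signalling had 0 called in bEECs with rbCAPG, 1 higher with rbPDI and 0 in bESCs. With genes at 3 counts or fewer set to that floor or left out where both groups were there, the median log2 fold change was 2.62 and 2.01 in bEECs, and -0.04 and 0.31 in bESCs. The called gene was RAMP3, a subunit of adrenomedullin receptors, which went from 0.0502 ± 0.0461 CPM in VC bEECs, with at most 3 counts in each sample, to 1.88 ± 1.04 CPM with rbPDI (edgeR adjusted p = 0.0259). EDN1, the peptide endothelin 1, went from 37.1 ± 4.53 CPM in VC bEECs to 153 ± 52.6 CPM under rbCAPG (2.05, edgeR adjusted p = 0.0787, and 0.00216 with the replicate block). In bESCs, GPR84, a receptor for medium-chain fatty acids, was at 0.281 ± 0.247 CPM with VC, 7.47 ± 7.46 CPM with rbCAPG and 7.26 ± 4.59 CPM with rbPDI (edgeR adjusted p = 0.163 and 0.0894, and 0.00647 and 0.00316 with the replicate block). With the block, 5 of the 7 were called higher in bEECs with each protein and 1 in bESCs with each. DESeq2 called 6 of the 7 higher with rbCAPG in bEECs and 1 in bESCs, against 1.39% and 0.416% of all genes it tested. Here too the difference between the cell types is tied to how the genes were listed, and nothing is read from it.

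The 3 cytokines linked to STAT3, by way of which STAP2 is known to act, had 0 called in bEECs with rbCAPG, 2 called higher with rbPDI, and 1 higher in bESCs with each protein, against 3, 3, 2 and 2 under the replicate block. IL6 was at 204 ± 85.3 CPM in VC bEECs, 1329 ± 377 CPM with rbCAPG (2.70, edgeR adjusted p = 0.0956, and 0.0464 with the replicate block) and 1918 ± 1347 CPM with rbPDI (3.23, edgeR adjusted p = 0.0268). In bESCs it went from 110 ± 83.5 CPM to 1484 ± 339 CPM with rbCAPG (3.75, edgeR adjusted p = 0.0482) and 2004 ± 631 CPM with rbPDI (4.18, edgeR adjusted p = 0.0164). IL23A, a subunit of interleukin 23, rose in bEECs with rbPDI by 1.32 (edgeR adjusted p = 0.0421). CSF3, the granulocyte growth factor, was at 0 in all VC bESC samples and at 3.29 ± 5.12 CPM with rbCAPG and 2.40 ± 3.04 CPM with rbPDI, which was not called (edgeR adjusted p = 0.185 and 0.123, and 0.00129 and 0.000578 with the replicate block).

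Among 5 genes of Toll-like and interleukin 1 receptor signalling, 1 was called higher in bEECs with each protein and 0 in bESCs, with 4 in bEECs for each protein and 0 and 2 in bESCs under the replicate block. IL18R1, a chain of the interleukin 18 receptor, rose in bEECs with rbCAPG by 1.79 (edgeR adjusted p = 0.0492). CD14, the lipopolysaccharide co-receptor, rose in bEECs with rbPDI from 7.11 ± 1.47 to 36.3 ± 4.78 CPM (2.35, edgeR adjusted p = 0.0421). IL1RN, the interleukin 1 receptor antagonist, was at 38.6 ± 4.43 CPM with VC and 137 ± 53.8 CPM with rbPDI (1.83, edgeR adjusted p = 0.0563, and 0.0011 with the replicate block).

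**Figure D4:**
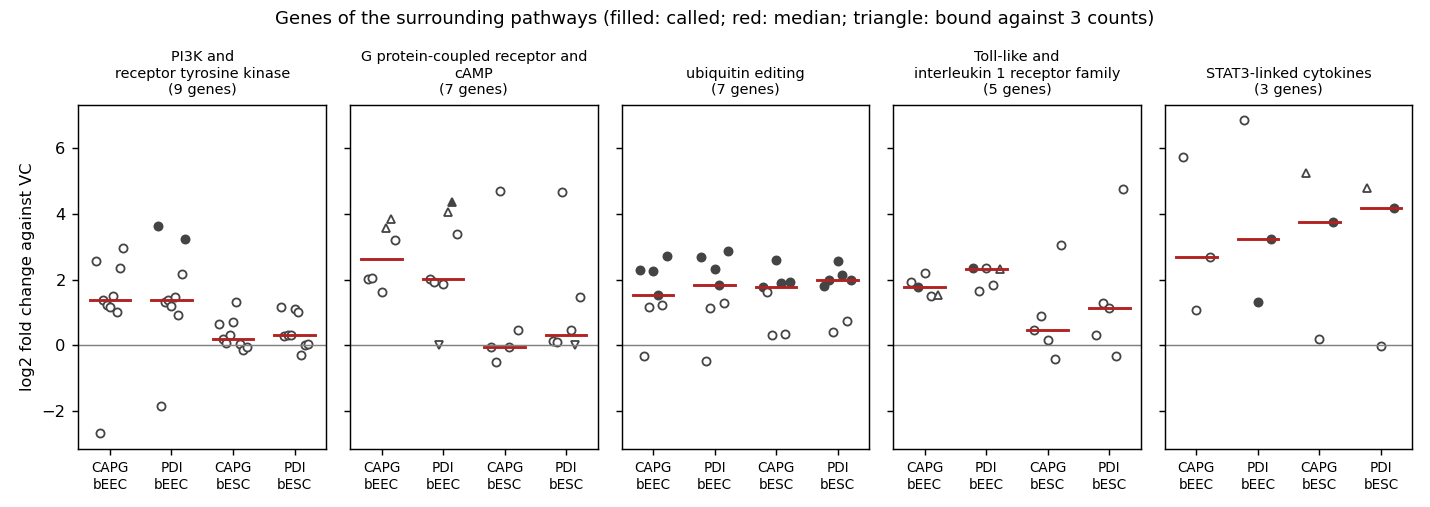
Log2 fold change against VC of each gene in 5 pathway lists, for rbCAPG and rbPDI in bEECs and bESCs, with filled symbols for called genes and a red bar at the list's median. Triangles are genes with 3 counts or fewer in every sample of one group, set at that floor, genes at the floor in both groups are left out, and the ubiquitin editing list has filled symbols in all 4 comparisons.

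Reads were divided among overlapping genes and among repeated matches, which leaves fractions in the counts. Fractions were found in 7 of the 18 values of STAP2, 13 of PIK3AP1, 7 of RNF125 and 0 of PDE4B, so some reads of STAP2, PIK3AP1 and RNF125 were divided. In the RefSeq annotation, which is of another assembly, STAP2 lies between MPND and FSD1, PIK3AP1 next to TM9SF3, and RNF125 between RNF138 and TRAPPC8 with 0 overlapping genes each, and PDE4B lies beside LEPR and overlaps a tRNA gene and MGC137454. Without a stated strand setting, reads of PDE4B and of a gene on its opposite strand cannot be told apart.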

How the data were processed

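RNA from 18 samples was made into SMART-Seq v4 libraries and sequenced as paired-end reads. After trimming in Trimmomatic and alignment by STAR to the ARS-UCD1.3 genome, the authors used featureCounts to assign reads to genes of the Ensembl annotation. What they deposited are estimated counts without normalization, in which a read with several matches, or over several genes, was split into fractions (23.3% of values were not whole). No strand option is given in the sources used here. Each column was mapped to its group and animal by its label, and 0 columns were left unused.

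Counts were rounded and analysed in R 4.3.3. edgeR's filterByExpr left 17931 genes, which were scaled by TMM and fitted by the quasi-likelihood method of edgeR 4.0.16 to the 18 samples, with 6 group means as terms (12 residual degrees of freedom, common biological coefficient of variation 0.360). P-values were adjusted over all genes tested, and calls were made below 0.05 for genes that changed by more than 1 on the log2 scale. The standard error is the log2 fold change divided by the square root of F, and intervals are at 95%. Total counts were 10072851 to 44253149 per sample, and chi-square per degree of freedom between replicates was at least 103, far beyond sampling noise, so all libraries were kept as separate samples. Floors of 3 counts reflect counting error alone. For groups of 3, the smallest two-sided p that exact permutation allows is 0.1.

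Replicate numbers mark the animals, as the study's methods give them. In the data, deviations from the group means correlated between same-numbered samples of a cell type in all 9 pairs in bEECs (0.311 to 0.624) and all 9 in bESCs (0.129 to 0.668), so the fit with the animal as a block (8 residual degrees of freedom) is given where it changes a call. Other alternatives were DESeq2 1.42.0, its size factors, other filters, fits to fewer samples, no fold limit, glmTreat with a limit of 1 on the log2 scale, values left unrounded, and the removal of each sample in turn. Leaving out bESC replicate 1 from all stromal groups was chosen after seeing the data.

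The named genes are the 4 genes in every comparison, the pathway lists with the 2 genes of smallest p in each comparison as examples, and the 3 genes most like each of the 4. Which of these examples are given with values was chosen after they were seen. The genes and lists were chosen with earlier results of these data known. Symbols came from 190 identifiers paired with a symbol in the study's tables. The sequence search in the plan was not run, and no sequence was used here. Only identifiers and symbols were read from the study's own lists of changed genes. These lists thereby set which genes could enter the pathway lists, the marker sets and the search for genes most alike.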

Additional observations from a re-analysis of the deposited data

How the results depend on the processing

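Of the 4 genes, the number called with rbCAPG in bEECs was 2, with 4 under the replicate block, 1 in a fit to the 6 samples compared and 0 by glmTreat, and 0 to 1 with a sample left out. For rbPDI in bEECs it was 2, with 4 under the replicate block, 1 without a filter, 1 in the 6-sample fit, 0 by glmTreat and 0 to 1 with a sample left out. For rbCAPG in bESCs it was 0, with 2 under the replicate block, 1 by DESeq2, 1 without a filter and 0 to 1 with a sample left out, or 1 (PDE4B, 2.13, edgeR adjusted p = 0.0361) without bESC replicate 1 in all stromal groups. For rbPDI in bESCs it was 1, with 3 under the replicate block, 3 by DESeq2, 0 in fits to 9 or 6 samples, 0 by glmTreat, and 0 to 0 with a sample left out, as without bESC replicate 1 in all groups. The causes were not tested, except that glmTreat asks for more by its construction. DESeq2 called 3 of the 4 with each protein in bEECs. Its rbCAPG calls in both cell types repeat the study's own DESeq2 lists and are no independent support. The replicate block changed no other call of the 4 genes, and the 3 cell type calls with VC were made under all 16 alternatives run.

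Over all genes, calls for rbCAPG and rbPDI in bEECs and then in bESCs were 92, 145, 17 and 32, against 392, 531, 86 and 189 with the replicate block, 270, 383, 71 and 173 by DESeq2, and 44, 67, 4 and 4 by glmTreat. Fitting each cell type alone (9 samples) gave 152, 290, 1 and 1 calls, 3 of the 4 genes among those for rbPDI in bEECs, and fits to the 6 samples compared gave 130, 210, 0 and 3.

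Signs turned only in comparisons that were not called, and only with a sample left out, in 11 cases. For rbPDI minus rbCAPG in bEECs, leaving out samples gave -0.25 to 0.084 for STAP2 (0.084 without rbCAPG replicate 1, 0.020 without rbPDI replicate 2), -0.13 to 0.23 for PIK3AP1 (-0.069 without rbCAPG replicate 2, -0.13 without rbPDI replicate 3) and -0.046 to 0.073 for PDE4B (-0.046 without rbCAPG replicate 1, -0.0038 without rbPDI replicate 1). In bESCs the same difference ran from -0.21 to 0.57 for RNF125 (-0.0059 without rbCAPG replicate 1, -0.21 without rbPDI replicate 3) and from -0.68 to 0.31 for PDE4B (0.31 without rbCAPG replicate 2). PIK3AP1 in bESCs ran from -0.50 to 0.036 for rbCAPG (0.036 without VC replicate 1) and from -0.015 to 0.52 for rbPDI (-0.015 without VC replicate 3). PIK3AP1 in bESCs had the fewest counts of the 4 genes, at 21 to 72.5 per sample, and the part of depth was not tested.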
